A study of Rattus norvegicus with 12 samples.

Results

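Schwann cells wrap the axons of peripheral nerves, and in the larger axons they build myelin, a stack of membrane that speeds conduction. Skeletal muscle contains them mainly where nerve branches run between the fibres and at nerve endings, so their transcripts form a small part of the RNA of a muscle. The transcription factor Sox10 sets and keeps Schwann cell identity and, together with Egr2, drives the genes of the myelin sheath. The 7 genes described here were chosen by name as Schwann cell and myelin genes: Mbp, Pmp22, Prx, Mag, Cnp, Sox10 and S100b. Each matched 1 row of a table of 30560 genes, and all 7 had counts in every library and passed the filter for low counts. Mag and Sox10 passed it only with the mitochondria libraries counted in.

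The muscle was the gastrocnemius of the calf, its inner red portion, from 6 wild-type Wistar Kyoto rats, all male and 9 weeks old. Each animal gave 1 library of whole muscle, which had no treatment, and 1 library of mitochondria, which were captured by immunoprecipitation and digested with RNase A and proteinase K. The 2 libraries of an animal came from separate portions of the muscle, a snap-frozen one for whole muscle and a fresh one for mitochondria, and started from 50 ng and 10 ng of total RNA. Ribosomal RNA was depleted in both. The comparison asks which RNAs accompany mitochondria and at what level.

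Levels are in CPM, a gene's reads scaled so that all gene counts of its library sum to 1e6. Depth was 24309444 to 32055355 counts in whole muscle and 720111 to 1785865 in mitochondria. Genes of the mitochondrial genome took 26.4% to 35.9% of the counts in whole muscle and 12.9% to 51.5% in mitochondria, so CPM of the mitochondria libraries also moves with this share, and values relative to nuclear counts alone (nuclear CPM) are given where it matters. The muscle-fibre markers, 14 genes such as Ttn, Myh4 and Acta1, summed to 169297 to 234717 CPM in whole muscle and to 1426 to 3579 CPM in mitochondria, where all 14 still had counts in every library. No transcript lengths were at hand, so levels are compared mainly between libraries for 1 gene. Where levels of different genes are set side by side, they are not corrected for length.

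Promoter sequences are shown for Pmp22 and Cnp. They were picked because, in CPM, Pmp22 was lowest in whole-muscle replicates 6 and 2, as Mbp was, and Cnp in replicates 6 and 5 (11.2 and 11.9 CPM). They were also picked because in both the annotated start site is the 5′ end of the gene. Each sequence is the 250 bases before the start site, 5′ to 3′ on the coding strand, from RefSeq with the build GRCr8, at chr10:48294682-48294931 for Pmp22 and chr10:86011254-86011503 for Cnp, both on the plus strand. Capitals mark a match to the Sox core letters ACAAAG or ACAAT, searched on both strands.
Pmp22: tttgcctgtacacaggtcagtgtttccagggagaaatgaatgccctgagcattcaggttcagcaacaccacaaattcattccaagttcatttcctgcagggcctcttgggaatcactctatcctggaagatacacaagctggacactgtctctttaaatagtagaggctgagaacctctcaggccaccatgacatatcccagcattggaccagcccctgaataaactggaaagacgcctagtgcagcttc
Cnp: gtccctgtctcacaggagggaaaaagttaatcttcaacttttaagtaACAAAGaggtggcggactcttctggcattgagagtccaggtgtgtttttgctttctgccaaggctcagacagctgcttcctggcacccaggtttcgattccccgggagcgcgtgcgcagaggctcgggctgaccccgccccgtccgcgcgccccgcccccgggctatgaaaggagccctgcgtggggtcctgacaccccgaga
Cnp holds 1 match, ACAAAG, at position -203 from its start site, and Pmp22 holds none. Over windows of 300 bases that run to 50 bases past the start site, 6 of the 7 genes had an entry (Sox10 had none), and Mag, Cnp, S100b and 1 of the 2 start sites of Mbp held a match, while Prx, Pmp22 and the other start site of Mbp held none. Of 33469 rat promoter windows of that length, 18.8% held ACAAAG, 33.7% held ACAAT and 44.9% held either, so 4 of 7 windows with a match is near the share over all promoters. A match of these letters is a description and not a binding site.

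The first question was how the genes varied between animals in whole muscle. In CPM, Mbp, Prx, Pmp22, Mag, Sox10 and S100b had their 2 lowest levels in the same 2 animals, replicates 6 and 2. Cnp had its lowest in replicates 6 and 5. In nuclear CPM this held for the first 5 genes but not for S100b, lowest in replicates 2 and 1 (2.54 and 2.94, with 3.32 in replicate 6). Cnp was then lowest in replicate 5 (16.4), followed by replicate 6 (17.3). The sum of the 7 genes was 39.8 CPM in replicate 6, 53.5 CPM in replicate 2 and 73.0 to 90.7 CPM in the others. In bulk tissue, fewer cells of a type and less RNA per cell cannot be told apart.

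Mbp (ENSRNOG00000016516) encodes myelin basic protein, which holds the inner faces of the myelin membrane together. In whole muscle its lowest level was 3.22 CPM (87 counts), its median 12.4 and its highest 17.4 CPM (423 counts), with a mean of 11.4 ± 5.66 (SD, n = 6). Replicate 6 was lowest, replicate 2 followed with 6.24 CPM, and the other 4 libraries were at 11.7 CPM or more. The highest library was 5.40 times the lowest, and the coefficient of variation (the SD as a percentage of the mean) was 49.7%, against 5.60% from counting alone. Of 4639 nuclear genes with a whole-muscle mean within 2-fold of that of Mbp, 99.1% had a smaller coefficient of variation, with a median of 13.0%.

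Prx (ENSRNOG00000018369) encodes periaxin, a scaffold that links the outer Schwann cell membrane to the dystroglycan complex. Its levels in whole muscle were 6.96 CPM at the lowest, 21.1 at the median and 24.3 at the highest (18.1 ± 7.02, SD, n = 6). The order was that of Mbp at the low end, with replicate 6 lowest and replicate 2 next at 12.0 CPM. Its coefficient of variation of 38.9% was above that of 98.8% of genes of like level.

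Pmp22 (ENSRNOG00000003338) encodes a small membrane protein of compact myelin, which fibroblasts and other cells also make. It ranged from 15.5 CPM in replicate 6 and 17.5 CPM in replicate 2 to 30.9 CPM in replicate 4, with a median of 22.3 and a mean of 23.0 ± 6.22 (SD, n = 6). The same libraries were low as for Mbp and Prx, over a narrower range of 1.99 times.

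Mag (ENSRNOG00000021023), the myelin-associated glycoprotein of the membrane next to the axon, was near the limit of detection in whole muscle. It had 3 counts in replicate 2 and 3 in replicate 6, and 15 to 18 counts in the others. In CPM this is 0.0974 at the lowest (95% exact Poisson interval 0.0201 to 0.285, counting error only), 0.484 at the median and 0.699 at the highest. The 2 low libraries were again those of the other myelin genes.

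Sox10 (ENSRNOG00000011305) had 0.666 CPM at the lowest (18 counts, replicate 6), 1.45 at the median and 2.43 at the highest (replicate 4), with a mean of 1.56 ± 0.723 (SD, n = 6). Replicate 2 was again second lowest, but replicate 5, with 1.20 CPM, was close to it, so Sox10 did not follow Mbp there. Counting error alone would give a coefficient of variation of 15.0% for Sox10, of the 46.4% found.

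S100b (ENSRNOG00000001295) encodes a calcium-binding protein that marks Schwann cells and is also made by other cells, fat cells among them. It was lowest in replicate 2 with 1.72 CPM, had a median of 2.64 and was highest in replicate 5 with 3.38 CPM (2.65 ± 0.725, SD, n = 6). Replicates 6 and 1 were close together at 2.15 and 2.16 CPM, and 76.4% of genes of like level varied less.

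Cnp (ENSRNOG00000017496) encodes an enzyme of uncompacted myelin, CNPase, that many cell types make at a low level. It went from 11.2 CPM at the lowest, in replicate 6, to 13.7 at the median and 15.8 at the highest (13.5 ± 1.80, SD, n = 6). In CPM, Cnp thus had the same lowest animal as Mbp, but replicate 2 had 14.9 CPM, the second highest. Its coefficient of variation of 13.3% was close to the median of 12.4% for genes of like level.

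**Figure D1:**
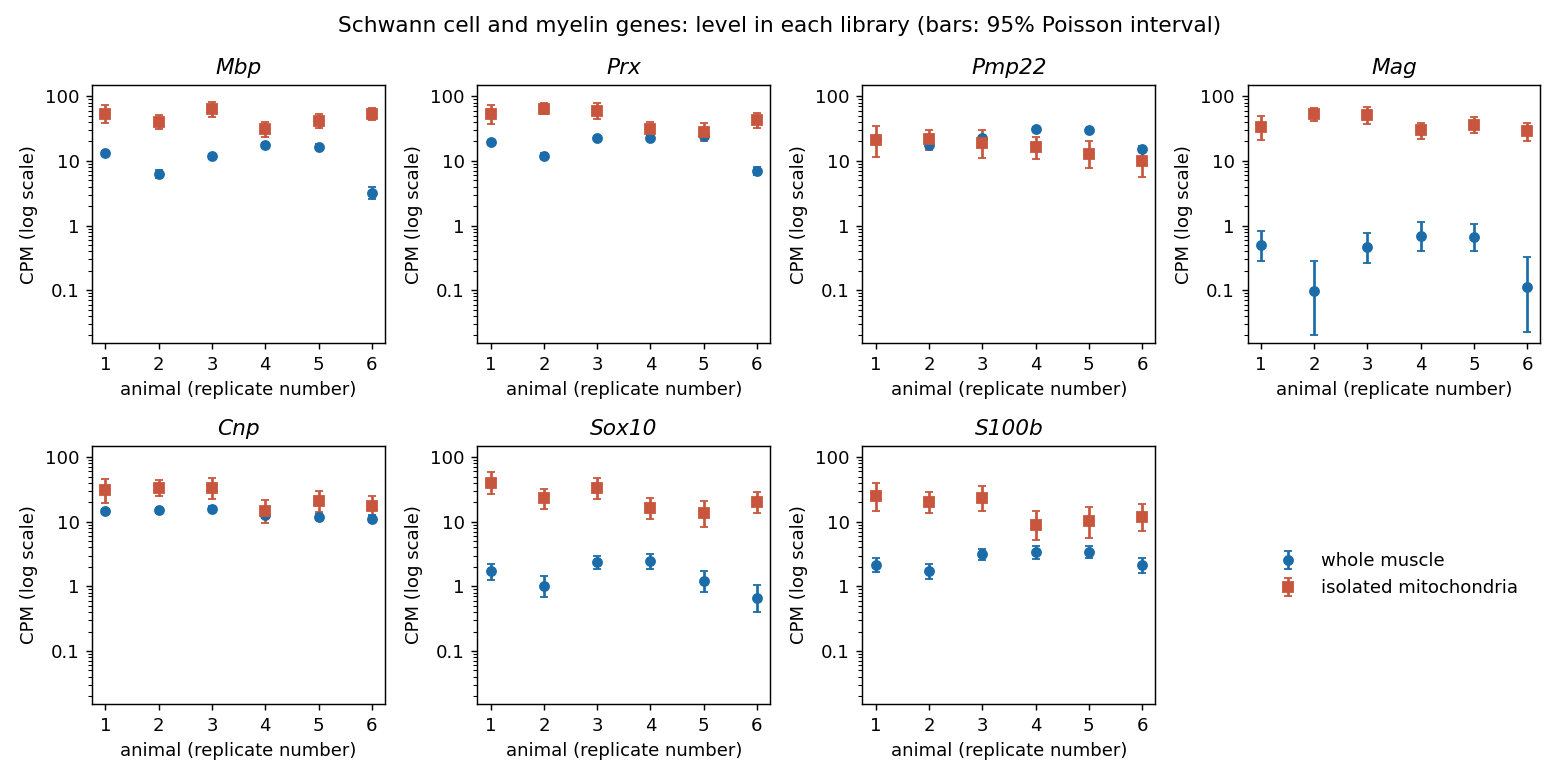
CPM on a log axis for each of the 7 genes in whole muscle (circles) and isolated mitochondria (squares), by animal, with 95% Poisson intervals for counting error. Whole-muscle replicates 6 and 2 are the lowest 2 for Mbp, Prx, Pmp22, Mag, Sox10 and S100b. In the mitochondria libraries none of these genes has replicates 6 and 2 as its lowest 2.

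A wider list of 36 Schwann cell and myelin genes, all present in the table, was put beside the 7. Among the 26 genes of the list with at least 1 CPM in whole muscle, replicates 2 and 6 were the lowest 2 libraries in 10 (38.5%), against 7.01% of 11983 nuclear genes at that level, and the same held for 5 of the 6 chosen genes that reach 1 CPM. The low pair was not particular to Schwann cell genes. It was found in 2 of 5 adipocyte genes (40%) and 3 of 10 nerve sheath and fibroblast genes (30%). Of 14 muscle-fibre genes 2 had it (14.3%), and of 5 axon and neuron genes 0. These counts were made after the pattern had been seen and carry no test. Egr2, the partner of Sox10 in myelination, went the other way: it had 2.92 CPM in replicate 6 and 0.494 to 1.10 CPM in the others. Egr2 is also an immediate early gene in many cells, as is Jun, which had 288 CPM in replicate 6 and 125 to 212 CPM elsewhere.

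Other cell types moved with these libraries in part. The list of nerve sheath and fibroblast genes, of which 10 were present, summed to 7927 CPM in replicate 6 and to 2434 to 3316 CPM in the others, through Col1a1 (3558 CPM against 559 to 880) and Col1a2, the chains of type I collagen. Adipocyte genes summed to 494 to 768 CPM, with replicates 2 and 6 at 620 and 626 CPM, in the middle of that range. Axon and neuron genes summed to only 11.8 to 18.8 CPM, with 12.7 CPM in replicate 2 and 16.4 CPM in replicate 6. Chat, Snap25, Mog, Olig2 and Opalin, defining genes of motor neurons, of nerve endings and of the myelin-forming cells of the brain, had no count in whole muscle. The part of these other cells in the low myelin values was not tested.

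**Figure D2:**
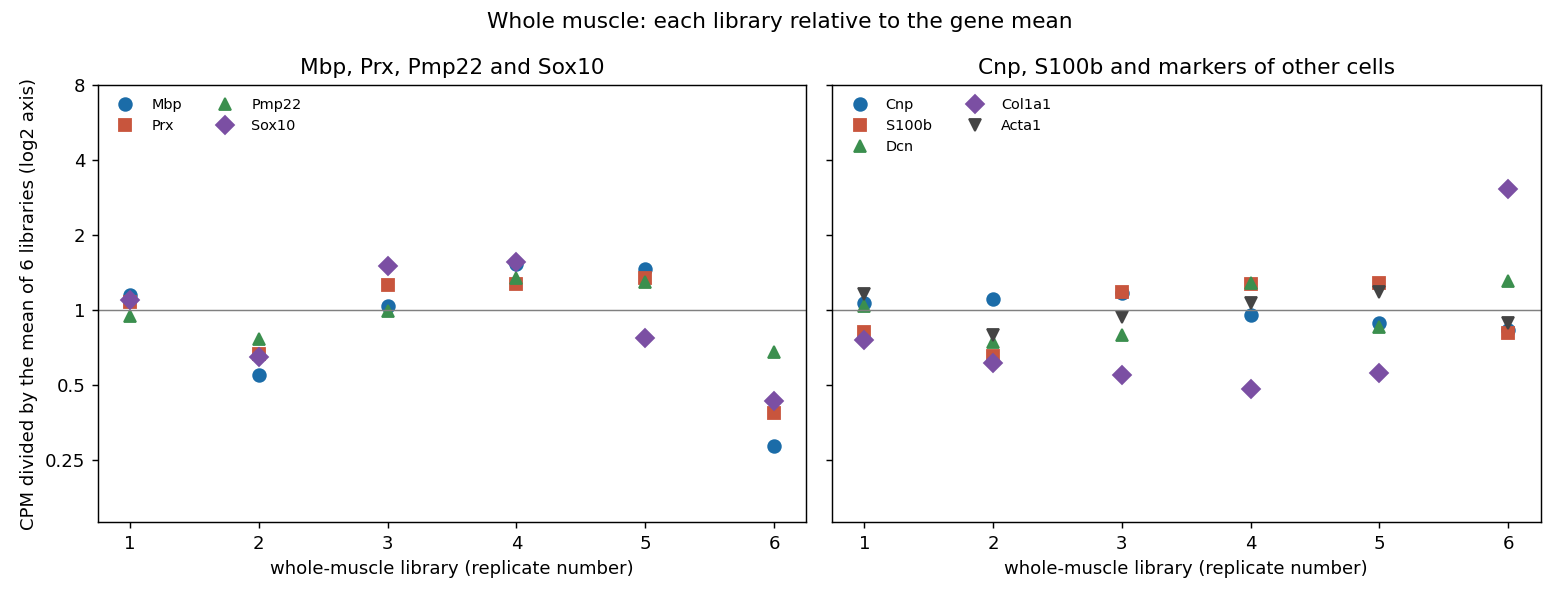
CPM of each whole-muscle library divided by the mean of the 6 libraries, on a log2 axis, for Mbp, Prx, Pmp22 and Sox10 (left) and for Cnp, S100b, Dcn, Col1a1 and Acta1 (right). On the left, replicate 6 is lowest for every gene and replicate 2 is next, and on the right Col1a1 is highest in replicate 6.

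To find the genes most like the myelin genes, levels in whole muscle were put on a log2(CPM + 0.5) scale, standardised over the 6 libraries and compared with the mean profile of Mbp, Prx and Sox10, leaving out Mag, which is below 1 CPM. Among 8745 tested genes with at least 5 CPM, the smallest root mean square differences, in units of SD, were those of Nol9 (0.103), Prrc2b (0.193), Sfrp5 (0.201), Rap1gap2 (0.223) and RGD1563354 (0.229), where the median gene had 1.33. Sfrp5, a secreted inhibitor of Wnt signalling, had a range as wide as that of Mbp, from 1.78 CPM in replicate 6 to 10.4 CPM in replicate 4. Prrc2b moved little, between 155 and 183 CPM, since the measure follows the shape of a profile and not its size. Pmp22 ranked 52 and Cnp ranked 1459. With 6 libraries and 8745 genes many profiles come close, so these are descriptions.

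The second question was how the genes compared between isolated mitochondria and whole muscle. In CPM, 6 of the 7 genes had a higher mean in the mitochondria libraries and Pmp22 a lower one. For Mbp, Prx, Mag, Sox10 and S100b the groups did not overlap, and these 5 and Cnp were higher in mitochondria in 6 of 6 animals. How many of all genes did the same was not counted, so this does not set the members apart. Most genes differ between these libraries: with CPM's own scaling, library totals, edgeR's quasi-likelihood test called 84.4% of 24679 genes higher in mitochondria and 8.93% lower at an adjusted p under 0.05.

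Mag had 28.6 CPM at the lowest, 35.0 at the median and 52.6 at the highest in mitochondria, against at most 0.699 CPM in whole muscle. The mean of Mag in mitochondria was 38.8 ± 10.8 (SD, n = 6), which is 91.2 times that of whole muscle. In counts these are 298 reads from the 6 shallow mitochondria libraries and 71 from the 6 deep whole-muscle libraries. The 1945 coding genes without a count in any whole-muscle library had a median of 17.4 nuclear CPM in mitochondria. By mean nuclear CPM there, Mbp, Prx and Mag lay above 98.5%, 98.1% and 96.5% of these genes. Cnp, Sox10, Pmp22 and S100b lay above 85.2%, 84.3%, 68.2% and 65.3%. Gene length was not corrected for.

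For Sox10 the mitochondria libraries went from 13.6 CPM over a median of 21.4 to 40.3 CPM, and the mean of 24.5 ± 10.4 (SD, n = 6) was 15.7 times that of whole muscle. S100b had 8.96 CPM at the lowest and 16.1 CPM at the median (16.7 ± 7.13, SD, n = 6). In both genes every mitochondria library was above every whole-muscle library. The S100b locus overlaps Dip2a in RefSeq, and since nothing at hand says whether reads were counted by strand, reads of the 2 genes may not be separable.

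Mbp in mitochondria had 31.4 CPM at the lowest, 48.0 at the median and 63.1 at the highest (47.5 ± 11.6, SD, n = 6), 4.17 times whole muscle. Prx ranged from 28.5 over 47.7 to 64.7 CPM (46.5 ± 15.0), 2.57 times whole muscle. The whole-muscle libraries of both genes lay below these ranges.

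Cnp and Pmp22 overlapped between the groups. Cnp had 14.6 CPM at the lowest, 25.8 at the median and 33.8 at the highest in mitochondria (25.2 ± 8.57, SD, n = 6), 1.86 times whole muscle. Pmp22 had 9.98, 17.7 and 21.6 CPM (16.8 ± 4.62), 0.729 times whole muscle, and was higher in mitochondria in 1 of 6 animals. In nuclear CPM, Cnp separated (30.0 to 47.4 in mitochondria, 16.4 to 24.5 in whole muscle) and Pmp22 still overlapped.

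The main model in edgeR scaled libraries by TMM, a trimmed mean that assumes most genes do not change, and called 63.0% of 24679 genes higher and 30.3% lower in mitochondria. Of the 7 members, 2 were higher, 3 lower and 2 did not pass. The median log2 fold change was -0.07 over the members and 2.51 over all genes tested. A positive value means higher in mitochondria. No test over the list was made. A gene could pass the filter through the mitochondria libraries alone, and 5592 of the 24679 genes had no count in whole muscle.

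Mag rose, with a log2 fold change of 4.40 ± 0.27 (SE, edgeR adjusted p = 1.45e-15), and Sox10 rose by 1.77 ± 0.25 (edgeR adjusted p = 1.32e-07). Both also rose with library totals (6.51 and 3.91) and with mitochondrial genome counts as library size (6.80 and 4.38). In the main model Mag passed the filter for low counts only through the mitochondria libraries. Sox10 fell short of it in whole-muscle replicate 6 (0.666 CPM), so it too needed them. Their calls as higher therefore lean on the group where they are high. Without the filter the log2 fold changes were 4.34 and 1.71.

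Pmp22 fell by 2.57 on the log2 scale (SE 0.18, edgeR adjusted p = 3.80e-14), and by 0.48 with library totals (edgeR adjusted p = 0.0308), but did not pass with mitochondrial genome counts as library size (-0.20, edgeR adjusted p = 0.723). Cnp fell with TMM (-1.27 ± 0.14, edgeR adjusted p = 7.93e-10) and rose with library totals (0.86) and with mitochondrial genome counts (1.25, edgeR adjusted p = 0.0233). Prx fell with TMM (-0.78 ± 0.22, edgeR adjusted p = 0.00132) and rose with library totals (1.35) and with mitochondrial genome counts (1.71). The direction for Cnp and Prx thus depends on the scaling, while that of Pmp22 was negative under all 3.

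Mbp had a log2 fold change of -0.07 ± 0.26 with TMM (edgeR adjusted p = 0.804), and it rose by 2.05 with library totals and by 2.37 with mitochondrial genome counts. S100b had 0.45 ± 0.22 with TMM and missed the threshold by little (edgeR adjusted p = 0.0514), and rose with library totals (2.59) and mitochondrial genome counts (3.03). With library totals 6 members were higher and 1 lower, beside 84.4% and 8.93% of all genes. With mitochondrial genome counts edgeR called 6 higher and 0 lower, also 0 at an unadjusted p under 0.05, beside 80.7% and 4.40% of nuclear genes. With all libraries thinned to 573903 nuclear counts, 3 members were higher and 1 lower of the 6 that could be tested, beside 58.8% and 27.6% of 14980 genes. With the animal as a block, 2 were higher and 3 lower, beside 62.9% and 30.1%.

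Scaling shifts all genes by nearly the same amount, so the distance of a member from the median gene carries over between these 3 scalings by construction. For Pmp22 the log2 fold change minus that of the median gene was -5.08 with TMM, and 8.62% of genes lay lower. Cnp lay above 20.1% of genes, Prx above 25.3%, Mbp above 33.0%, S100b above 37.6%, Sox10 above 46.2% and Mag above 58.2%. These distances differed in the thinned libraries, where Pmp22 was at -2.61 and Mbp at -0.26 from the median gene. There the median was taken over 14980 genes in place of 24679 and was 1.11 in place of 2.51. Depth and the changed set of genes cannot be told apart here. The log2 fold change of Sox10 itself was 1.77 before thinning and 2.21 after. Sox10, below the median gene in the main model (-0.74), was above that of the thinned libraries (1.10), and Mag was above it in both (1.89 and 2.95).

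**Figure D3:**
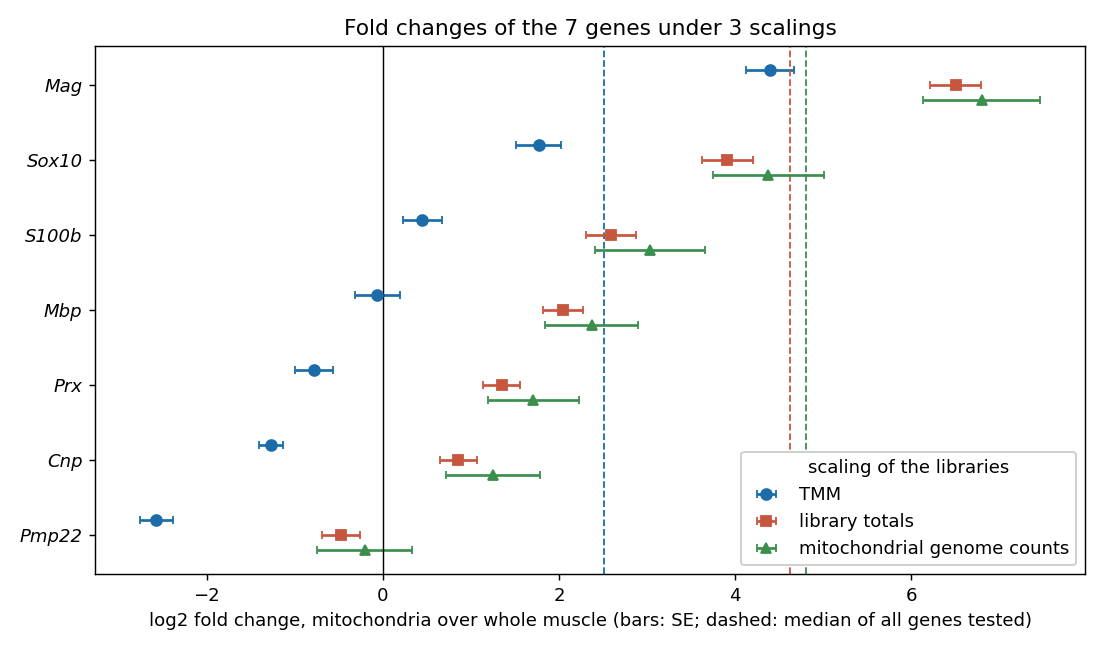
Log2 fold changes (mitochondria over whole muscle) of the 7 genes with their SE under 3 scalings of the libraries, with dashed lines at the median of all genes tested under each. The points shift together between scalings, Mag is the only gene to the right of the dashed line of its own scaling under all 3, and Pmp22 is furthest to the left.

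The make-up of the counts within the 7 genes does not depend on scaling. Pmp22 took 28.8% to 39.0% of their counts in whole muscle (mean 33.0% ± 3.60, SD, n = 6) and at least 5.42% in mitochondria (7.91% ± 1.87, SD, n = 6). Mag went from 0.182% to 0.771% in whole muscle to 13.0% to 22.2% in mitochondria. Neither gene overlapped between groups.

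Sox10 took 2.15% ± 0.612 in whole muscle and 11.1% ± 2.63 in mitochondria, and S100b 3.85% ± 0.849 and 7.44% ± 1.46 (SD, n = 6 each), without overlap. Cnp took 20.6% ± 6.31 and 11.5% ± 1.54, also without overlap. Mbp (15.1% ± 4.48 and 22.5% ± 4.55) and Prx (24.7% ± 4.16 and 21.3% ± 2.68) overlapped. The shares of a library sum to a whole, so they are not independent of each other. How often such shares overlap in other sets of genes was not counted, so the lack of overlap does not set these genes apart.

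**Figure D4:**
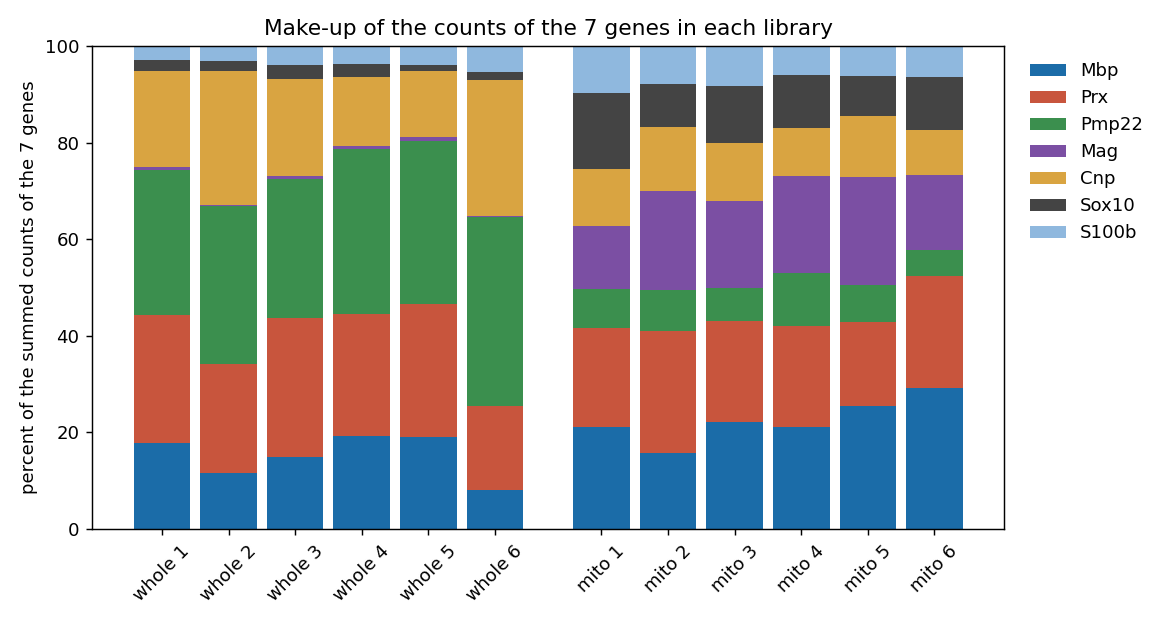
Percent of the summed counts of the 7 genes taken by each gene in the 6 whole-muscle and 6 mitochondria libraries. Mag is nearly absent from the whole-muscle bars, Pmp22 takes 28.8% to 39.0% of each, and in mitochondria Mag takes 13.0% or more and Pmp22 less than in any whole-muscle bar; heights are read counts and are not corrected for gene length.

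In nuclear CPM, the 7 genes summed to 280 to 360 in the mitochondria libraries and to 61.6 to 142 in whole muscle. The full order of the animals was not kept between the groups for Mbp, Prx, Pmp22 or Mag, though single places were shared. Mbp, lowest in replicate 6 in whole muscle (4.98 nuclear CPM), was highest in replicate 6 in mitochondria (95.2, against 56.8 to 72.4 in the others). Pmp22 was lowest in replicate 6 in both (24.0 and 17.6 nuclear CPM, the latter from 15 counts). Mag had its second lowest value in replicate 6 in both (0.172 and 50.5), but replicate 2 went from its lowest (0.144) to its highest (73.9). Prx was highest in replicate 2 in mitochondria (91.0, range of the others 48.5 to 75.2), an animal that was low in whole muscle. In mitochondria the coefficient of variation of Mbp in nuclear CPM was 18.1%, and counting error alone would give 13.0%.

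The wider list of 36 genes was compared in the same way. With TMM in edgeR, 26 of the 36 rose and 7 fell, beside 63.0% higher and 30.3% lower over all genes, with a median log2 fold change of 1.51 against 2.51. With library totals 31 rose and 3 fell, beside 84.4% and 8.93% over all genes, and with mitochondrial genome counts 29 rose and 2 fell, beside 80.7% and 4.40%. These shares are near those over all genes. The 3 genes of the list with the highest level in whole muscle fell in mitochondria under TMM: Dag1, the dystroglycan that Prx is linked to, went from 222 ± 14.0 to 41.9 ± 12.8 CPM, Jun from 195 ± 54.2 to 27.7 ± 13.2 CPM and Lama2, a laminin chain of the basal lamina, from 128 ± 8.58 to 110 ± 26.4 CPM (SD, n = 6 each). Dag1 and Jun also fell with library totals and with mitochondrial genome counts, but Lama2 passed with neither (log2 fold change -0.22 and 0.15). All 3 are also made by muscle fibres or other cells.

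Jun fell most in the list, by 4.98 on the log2 scale (edgeR adjusted p = 1.15e-20). Gfap, a filament protein of non-myelinating Schwann cells and of astrocytes, rose most, from 0.0585 ± 0.0542 to 41.5 ± 13.1 CPM, a log2 fold change of 7.14 ± 0.30 (edgeR adjusted p = 8.19e-20), and 9.25 and 9.63 with the other 2 scalings. It had at most 0.150 CPM in any whole-muscle library, so it passed the filter only through the mitochondria libraries.

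Markers of nervous system cells other than Schwann cells rose as well, beside 63.0% of all genes called higher with TMM (median 2.51), 84.4% with library totals and 80.7% with mitochondrial genome counts. All 12 genes of the oligodendrocyte list, the myelin-forming cells of the brain and spinal cord, were higher in mitochondria under the 3 scalings (median 6.88 with TMM, the same with the 3 genes at 0 in whole muscle set to a floor of 3 counts over the group), and all 12 had a count in every mitochondria library. They summed to 7.33 to 9.86 CPM in whole muscle, most of it Tmem63a, and to 238 to 453 CPM in mitochondria. Apart from Tmem63a, these genes had means of at most 0.308 CPM in whole muscle. They passed the filter of the main model only through the mitochondria libraries, so their direction was largely fixed in advance. After Tmem63a (7.78 ± 0.773 to 59.7 ± 15.4 CPM) the most abundant in whole muscle were Myrf (0.308 ± 0.0986 to 75.7 ± 19.9) and Hapln2 (0.193 ± 0.117 to 17.6 ± 7.83). All 15 axon and neuron genes found in the table rose too under the 3 scalings (median 4.41 with TMM, also with the 2 genes at 0 set to that floor), among them Cntn2 (7.80 ± 2.59 to 72.4 ± 22.0 CPM), Nefh (2.14 ± 0.517 to 31.5 ± 6.97) and Cntnap1 (1.46 ± 0.380 to 77.2 ± 20.6). Many of this list, such as Chat, Snap25, Syt1 and Nefl, also passed only through mitochondria. The floor touched only genes at the upper end of each list, so it could hardly move the medians.

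Genes abundant in whole muscle went the other way with TMM, beside 63.0% of all genes called higher and 30.3% lower. All 14 muscle-fibre genes fell, also with the other 2 scalings (median -9.27 with TMM), led in level by Ttn, Myh4 and Acta1. Of 10 nerve sheath and fibroblast genes 7 fell and 3 rose (median -3.40). Col3a1 (1220 ± 264 to 87.6 ± 9.73 CPM), Col1a1 (1166 ± 1177 to 126 ± 20.4) and Col1a2 (836 ± 756 to 95.4 ± 20.4) fell under the 3 scalings. With library totals this list had 5 lower and 4 higher, beside 8.93% and 84.4% of all genes. Of 10 adipocyte genes 3 fell, namely Lpl (301 ± 106 to 30.2 ± 3.06 CPM), Plin4 (193 ± 28.2 to 41.9 ± 12.6) and Fabp4 (109 ± 23.1 to 9.81 ± 2.73), and 6 rose. These adipocyte counts are near the TMM shares over all genes. The part of these other cell types in the differences of the 7 genes was not tested.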

How the data were processed

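RNA sequencing libraries of whole muscle and isolated mitochondria (6 rats, 12 libraries) were grouped by their titles. The authors deposited raw counts per gene; per the submitters' processing notes they used FastQC 0.74, cutadapt 4.6, STAR 2.7.11a and HTSeq with the genome build mRatBN7.2. For the strand setting, multi-mapped reads and annotation release, what was used is not known from the labels.

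Genes were tested in edgeR 4.0.16 (R 4.3.3; glmQLFit, glmQLFTest; TMM; filterByExpr, minimum count 10) on the whole table, group as the only term, with Benjamini-Hochberg adjustment over all tested genes and a threshold of 0.05. Standard errors were derived from the F statistic (absolute log2 change / sqrt F). The script was tested on simulated data in which most genes did not change. That setting meets the assumption of TMM, so it says nothing on the scaling of the real libraries. Mitochondrial genome genes (37) were those named Mt- or AY172581. Alternatives were RLE factors, library totals, nuclear genes alone, mitochondrial genome counts as library size, no filter, DESeq2 1.42.0, a replicate block, a fold of at least 2, thinning to 573903 nuclear counts and each library left out.

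The members, the 6 gene lists and the tests were chosen with earlier results of these data known. The text names all members, the 3 most abundant genes of each list in whole muscle, the wider-list genes that rose and fell most, and the 5 genes most like the reference profile. Egr2 and other genes beyond this rule were chosen after their values were seen.

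Replicate numbers pair the groups, since the descriptions of both libraries name one animal. Deviations from the group means correlated between -0.0075 and 0.0201 over 24679 genes for the 6 pairs. Poisson intervals (95%) cover counting error only. List medians were recomputed with genes at 0 in whole muscle at a floor of 3 counts over the group. Promoter sequences are from RefSeq (GRCr8), where 6 of the 7 members matched by symbol.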

Additional observations from a re-analysis of the deposited data

Results flagged for a closer look

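A gap test between the extreme library and the rest (Dixon, critical value 0.625 for 6 libraries) was run on 98 sets of 6 values, of which chance alone marks about 1 in 20. It marked 4, all of them the highest value in whole-muscle replicate 6. That animal had the lowest CPM of Mbp, Prx, Pmp22, Cnp and Sox10, though in nuclear CPM Cnp was lowest in replicate 5. Egr2 had 2.92 CPM there, with 1.10 CPM in the next library. Col1a1 had 3558 CPM, with 880 CPM next, and Col1a2 had 2372 CPM, with 653 CPM next. The nerve sheath and fibroblast genes together had 7927 CPM, with 3316 CPM next. No value of the 7 members was marked.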

How the results depend on the processing

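Mag and Sox10 were higher under every alternative run. With library totals 2204 genes and 1 member were lower and 6 members higher. With mitochondrial genome counts as library size 1071 genes and 0 members were lower and 6 members higher. Thinned libraries gave 8801 genes higher and 4137 lower among 14980, and 1 member lower, and S100b was not tested there, since it did not pass the filter. The members whose sign changed were Mbp (log2 fold change 2.05 with library totals, 2.37 with mitochondrial genome counts, 0.85 thinned), Prx (1.35, 1.71 and 0.18) and Cnp (0.86 and 1.25; thinned -0.17, not passing). The cause was not tested. Mbp was above 0 without passing with RLE factors (0.30) and in DESeq2 (0.29). Prx no longer passed with RLE factors (-0.42), in DESeq2 (-0.43) or against a fold of at least 2 (-0.78, edgeR adjusted p = 0.704), where 2 members were lower in each, and S100b passed with RLE factors and in DESeq2 (0.81 in both). In the thinned libraries Sox10 was above the median of the 14980 genes tested there (1.10), and in the main model below that of 24679 genes (-0.74). With single libraries left out, 11478 to 16363 genes were higher and 6925 to 7514 lower, and 2 to 3 members were higher and 3 lower. S100b passed in 8 of these 12 fits, without any single whole-muscle library or mitochondria replicate 4 or 5 (0.35 to 0.66 over the 12 fits), and the other members kept their side of the threshold in all 12. With the replicate block 15512 genes were higher and 7426 lower, with 2 members higher and 3 lower, and it changed no call of a member (Prx -0.67, S100b 0.48, Mbp 0.09). Depth limits Mag in whole muscle, with 71 counts in all and a counting coefficient of variation of 29.1%, and the members in mitochondria, with 118 to 354 counts each.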
